A study of Mus musculus with 12 samples.

Results

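Macrophages present antigen together with a second layer of surface signals, and 10 genes for such costimulatory and checkpoint molecules are described here: Cd40, Cd80, Cd86, Cd83, Icosl, Cd274, Pdcd1lg2, Havcr2, Sirpa, and Cd47. They were chosen by name, and they are 10 of 43626 gene rows in the count files and 10 of 14308 genes with enough reads to be tested. BMDMs, which are macrophages grown from mouse bone marrow, were treated for 6 hours with PBS, with 100 μg/mL 3′sialyllactose (3′SL, a human milk oligosaccharide that the labels call HMO), with 10 ng/mL LPS, or with LPS + 3′SL at the same doses. The RNA was sequenced in 12 libraries, 3 per condition. The labels give no strain, age, donor, or culture for a library, so the p-values measure only the spread between these libraries, which may be technical.

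A T cell that meets antigen needs a costimulatory signal, which CD80 and CD86 give through CD28 and ICOS ligand gives through ICOS, while CD40 receives the signal that activated T cells return through CD40 ligand. PD-L1 (Cd274) and PD-L2 (Pdcd1lg2) bind PD-1 and restrain T cells, and TIM-3 (Havcr2) is an inhibitory receptor that macrophages and dendritic cells carry themselves. SIRPα is an inhibitory receptor of macrophages, and its ligand CD47 marks cells as self and limits their engulfment. LPS is sensed by TLR4, which signals through NF-κB and interferon regulatory factors, and macrophages are known to answer it with more CD40, CD86, and PD-L1.

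The start sites of 4 of the genes are shown because they rose or fell with LPS and because they differ in what short motifs they hold. RefSeq windows (GRCm38.p6, plus strand, 250 bases before to 50 after the start) were found for 6 of the 10 genes. The windows lie at chr10:78069118-78069417 for Icosl, chr19:29410669-29410968 for Pdcd1lg2, chr19:29367188-29367487 for Cd274, and chr11:46454681-46454980 for Havcr2. Capitals mark the κB consensus bound by NF-κB in Icosl and Pdcd1lg2 and the motif GAGGAAGT, of the kind bound by PU.1, in Havcr2, each searched on both strands.
Icosl: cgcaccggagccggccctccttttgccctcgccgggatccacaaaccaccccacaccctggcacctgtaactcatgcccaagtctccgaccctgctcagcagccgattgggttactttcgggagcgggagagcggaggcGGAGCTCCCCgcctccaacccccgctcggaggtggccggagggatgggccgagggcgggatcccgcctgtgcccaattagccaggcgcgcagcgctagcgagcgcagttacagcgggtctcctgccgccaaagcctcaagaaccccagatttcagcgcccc
Pdcd1lg2: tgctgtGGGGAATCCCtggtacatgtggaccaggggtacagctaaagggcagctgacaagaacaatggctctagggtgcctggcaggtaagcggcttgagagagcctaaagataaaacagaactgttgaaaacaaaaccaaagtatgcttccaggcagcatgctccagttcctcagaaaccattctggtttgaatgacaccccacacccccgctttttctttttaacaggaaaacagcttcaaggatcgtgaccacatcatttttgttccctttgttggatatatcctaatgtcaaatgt
Cd274: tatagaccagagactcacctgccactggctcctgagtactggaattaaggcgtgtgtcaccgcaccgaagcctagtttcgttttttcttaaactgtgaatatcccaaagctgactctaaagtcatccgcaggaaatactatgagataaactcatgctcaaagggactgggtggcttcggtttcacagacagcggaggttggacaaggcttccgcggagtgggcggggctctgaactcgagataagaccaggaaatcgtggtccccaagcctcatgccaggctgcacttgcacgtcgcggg
Havcr2: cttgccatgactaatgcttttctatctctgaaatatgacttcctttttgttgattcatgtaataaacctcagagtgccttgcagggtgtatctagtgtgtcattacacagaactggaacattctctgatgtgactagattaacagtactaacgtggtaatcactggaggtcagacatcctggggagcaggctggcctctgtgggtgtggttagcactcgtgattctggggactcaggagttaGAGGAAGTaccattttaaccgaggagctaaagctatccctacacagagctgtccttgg

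The κB consensus starts 111 bases before the start in Icosl and 244 bases before it in Pdcd1lg2, and no other motif searched overlaps it. It was held by 2 of the 6 genes with a window and by 8.46% of all 32851 windows. GAGGAAGT ends at the base before the start of Havcr2 and was held by 3.20% of all windows. The windows of Cd274, Cd80, and Cd47 held no match to these or to TTCNNNGAA (8.30% of all windows), GAAANNGAAA (3.44%), TGACTCA (5.20%), or TGACGTCA (1.79%), which says only that these letters are not in these windows. Cd40, Cd86, Cd83, and Sirpa have no window in the table used.

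By the GENCODE M21 annotation of GRCm38, Cd274 (chr19:29367455-29388095) and Pdcd1lg2 (chr19:29410919-29471161) are neighbors on the plus strand, 22823 bases apart. Cd80 (chr16:38455561-38496335), Cd86 (chr16:36603869-36666081, minus strand), and Cd47 (chr16:49800533-49915010) lie on 1 chromosome. The exons of Cd274 overlap an annotated gene of the opposite strand, AC119228.1, by 511 bases. That gene has 0 rows in the count files, and whether the counting used strand is not given in the sources used here. Of the transcript words of 50 bases, 12.4% of those of Cd274 also occur in another gene, mostly this one, and for each of the other 9 genes the share was 0.722% or less.

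Between 20411741 and 26851890 reads were counted on genes per library. The running numbers of the labels form 3 sets of 4 consecutive libraries, 1 of each condition, and libraries of a set deviated from their condition means together (mean correlation 0.596 within sets and −0.346 between sets). Replicates 1, 2, and 3 of each condition are sets 1, 2, and 3 in that order, and values are given in this order. Levels are CPM, read counts relative to library size with TMM factors applied. The 8 macrophage markers summed to 17640 to 30044 CPM. The 6 fibroblast markers summed to 509 to 586 CPM in set 1 and to 21.6 to 85.5 CPM in the other sets, the 7 neutrophil markers to 240 to 784 CPM in set 3 and to 111 to 353 CPM in the others. Of the 5 T cell markers, Cd3e was at 0 in all libraries and only Lck had enough reads to be tested. Since RNA of whole cultures was measured, fewer cells of a type and less RNA per cell cannot be told apart.

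In edgeR's quasi-likelihood test, called means a change of at least 1.5-fold whose p, adjusted over all genes tested by Benjamini-Hochberg, was under 0.05, the thresholds of the study. All adjusted p-values below are from this test unless another fit is named, and each ± after a log2 fold change is its standard error (n = 3 libraries per condition). An exact permutation test of 3 against 3 libraries cannot give a p below 0.1.

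Before any treatment, the 10 genes spanned a wide range of levels. Compared per kilobase of exon, Sirpa was the most abundant in PBS at 457 ± 71.7 CPM per kb (SD, n = 3), followed by Havcr2 at 24.6 ± 1.74 and Cd47 at 18.1 ± 2.10. The ranges of these 3 genes over libraries did not overlap. Cd274 (9.97 ± 3.83), Cd83 (7.91 ± 2.95), and Cd86 (5.81 ± 1.79 CPM per kb) came next, and each overlapped its neighbor in this order. Cd40 (2.99 ± 0.972) and Cd80 (2.91 ± 0.335 CPM per kb) overlapped too, Icosl was at 1.42 ± 0.162, and Pdcd1lg2 was close to absent at 0.00976 CPM per kb.

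With LPS, the order changed. Cd274 stood first at 709 ± 202 CPM per kb, above Sirpa at 420 ± 33.2, Cd40 at 281 ± 61.6, and Cd47 at 81.0 ± 14.1, with no overlap between neighbors. Cd86 (41.8 ± 16.6) and Cd83 (36.4 ± 3.88 CPM per kb) followed and overlapped, as did Icosl (13.4 ± 4.87) and Havcr2 (7.13 ± 1.37 CPM per kb). Cd80 at 2.62 ± 0.303 and Pdcd1lg2 at 0.822 ± 0.552 CPM per kb were lowest. Havcr2 moved from the second to the eighth place and Cd40 from the seventh to the third. In LPS + 3′SL the first 6 places were held by the same genes in the same order, with Cd274 at 516 ± 179 and Sirpa at 394 ± 39.4 CPM per kb, whose ranges then overlapped. In 3′SL alone, Sirpa (365 ± 90.8), Havcr2 (36.3 ± 8.55), and Cd47 (20.1 ± 3.67 CPM per kb) held the first 3 places as in PBS.

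**Figure D1:**
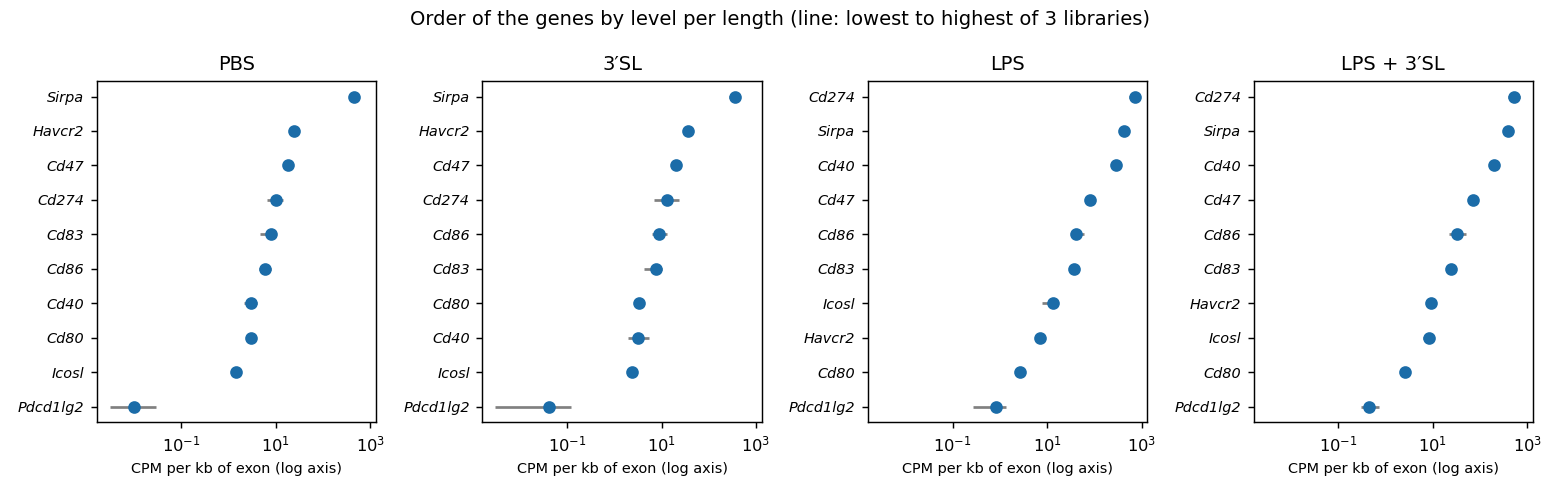
Level of each gene per kilobase of exon in CPM per kb (log axis) in the 4 conditions, ordered from the highest to the lowest. Points are means of 3 libraries and lines run from the lowest to the highest library, with libraries at 0 drawn at the left end; Cd274 stands at 9.97 CPM per kb in PBS and at 709 in LPS.

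The comparison of LPS with PBS asks how TLR4 activation changes these molecules. Of the 10 genes, 7 rose, 1 fell, and 2 were not called, where 18.3% of all genes tested were called higher and 20.2% lower. The median log2 fold change of the 10 genes was 2.52, against −0.061 over all genes tested. In the presence of 3′SL, LPS + 3′SL against 3′SL gave the same 7 genes higher and the same 1 lower, where 14.3% of all genes were called higher and 14.8% lower. The comparisons share no library with each other, but they come from 1 fit and from the same 3 library sets, so they are not independent. The dendritic cell markers also moved with LPS: their sum was 0.912 to 1.69 CPM in PBS and 6.10 to 15.7 CPM in LPS, 2 of the 4 tested of 6 markers were called higher (Xcr1 and Clec9a), and Flt3 and Cd209a stayed at or below 0.429 CPM in every library. The macrophage marker sum moved from 17640 to 20737 CPM in PBS to 26010 to 29473 CPM in LPS, with 5 of 8 markers called higher. The endothelial marker sum moved from 7.38 to 13.4 CPM in PBS to 18.5 to 28.6 CPM in LPS, with 2 of the 3 tested markers called higher. The T cell marker Lck was at 0.201, 0.386, and 0.0675 CPM in PBS and rose to 1.42, 2.42, and 3.62 CPM in LPS (log2 fold change 3.48 ± 0.71, adjusted p = 0.0021), and it also rose with LPS + 3′SL against 3′SL. Of the 4 B cell markers 2 were tested, and their calls differed. Cd79b fell by 1.38 ± 0.51 on the log2 scale with LPS (adjusted p = 0.046). Ms4a1 was not called, at 0.115, 0, and 0.270 CPM in PBS and 0, 0.533, and 0.614 CPM in LPS. The B cell marker sum was 1.81 to 2.70 CPM in PBS and 0.733 to 2.03 CPM in LPS. None of the fibroblast or neutrophil markers was called with LPS. The part of these shifts in the changes below was not tested.

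Cd40, the receptor for CD40 ligand, rose steeply. It was at 7.06, 9.86, and 13.7 CPM in PBS and at 767, 924, and 1183 CPM in LPS. Every LPS library stood far above every PBS library, and in both conditions set 3 was highest. Its log2 fold change was 6.55 ± 0.47, which is 94.0-fold (adjusted p = 2.4e-06). In LPS + 3′SL Cd40 was at 518, 628, and 878 CPM, against 6.66, 7.92, and 18.3 CPM in 3′SL, a log2 fold change of 5.94 ± 0.46 (adjusted p = 6.9e-06).

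Cd80 and Cd86, the paired ligands of CD28 and CTLA-4, did not move alike. Cd86 was at 16.4, 18.7, and 28.7 CPM in PBS and at 115, 121, and 223 CPM in LPS. The groups did not overlap, and set 3 was again the highest. Its log2 fold change was 2.85 ± 0.43 (adjusted p = 0.00031), and with 3′SL present it was 1.84 ± 0.42 (adjusted p = 0.0053). The second of these calls was lost when set 2 was left out (log2 fold change 1.81, adjusted p = 0.078).

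Cd80 was at 11.9, 11.1, and 9.44 CPM in PBS and at 10.7, 8.48, and 9.88 CPM in LPS. These libraries overlapped, and its log2 fold change of −0.16 ± 0.14 was not called (adjusted p = 0.40, 95% interval −0.47 to 0.16). Against 3′SL, where it was at 12.9, 12.2, and 11.5 CPM, LPS + 3′SL gave 10.5, 9.06, and 9.11 CPM. All 3 libraries of LPS + 3′SL lay below all 3 of 3′SL, but the log2 fold change of −0.35 ± 0.14 was not called (adjusted p = 0.077). Under scaling to total counts in place of TMM factors Cd80 was called lower with LPS, at −0.81, in a fit where the median of all genes stood at −0.71.

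Cd83, a surface protein of activated antigen-presenting cells that stabilizes MHC class II and CD86, rose as well. It was at 22.8, 26.4, and 11.8 CPM in PBS and at 95.6, 102, and 82.8 CPM in LPS. Here set 3 was the lowest of the sets in both conditions, the reverse of Cd40 and Cd86. Its log2 fold change was 2.20 ± 0.33 (adjusted p = 0.00030), and it was 1.70 ± 0.33 with 3′SL present (adjusted p = 0.0021).

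Icosl, the ligand of ICOS, was at 7.41, 6.31, and 5.97 CPM in PBS and at 70.2, 79.0, and 36.3 CPM in LPS. The groups did not overlap, although set 3 lay well below the other LPS libraries. The log2 fold change was 3.23 ± 0.30, which is 9.41-fold (adjusted p = 1.1e-05), and it was 1.79 ± 0.28 with 3′SL present (adjusted p = 0.00062). The κB consensus shown above lies in the window of this gene, and whether it takes part in the rise was not tested.

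Of the PD-1 ligands, Cd274 was the most abundant gene of the 10 after LPS and Pdcd1lg2 the least. Cd274 was at 24.0, 33.1, and 51.3 CPM in PBS and at 1983, 2332, and 3392 CPM in LPS. The log2 fold change was 6.15 ± 0.58, which is 71.1-fold (adjusted p = 1.2e-05), and it was 5.33 ± 0.55 with 3′SL present (adjusted p = 3.9e-05). As for Cd40, set 3 was highest in each condition and no LPS library came near a PBS library.

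Pdcd1lg2 had 2, 0, and 0 reads in the PBS libraries and 11, 33, and 44 reads in the LPS libraries. That is 0.0574, 0, and 0 CPM against 0.537, 1.60, and 2.70 CPM. Its rise was called (log2 fold change 5.94 ± 1.31, adjusted p = 0.0035), but it rests on few reads, and the fitted value was 8.21 without PBS replicate 1, the only PBS library with reads. The ratio of summed reads per library size was 71.3, with an exact 95% interval for counting error of 19.1 to 598. With 3′SL present, 0, 0, and 6 reads stood against 12, 14, and 26 reads (log2 fold change 3.39 ± 1.15, adjusted p = 0.040), and this call was lost when any library of the comparison other than the 1 with 6 reads was left out. The neighbors on chromosome 19 both rose and stayed far apart in level.

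Havcr2 was the only 1 of the 10 genes to fall with LPS. It was at 71.6, 62.1, and 67.4 CPM in PBS and at 23.7, 17.7, and 16.9 CPM in LPS. Every LPS library lay below every PBS library. The log2 fold change was −1.79 ± 0.19 (adjusted p = 2.9e-05). Between 88.4, 82.6, and 125 CPM in 3′SL and 28.7, 20.8, and 25.7 CPM in LPS + 3′SL, it fell by 1.98 ± 0.19 on the log2 scale (adjusted p = 2.5e-05).

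The receptor and the ligand of the SIRPα-CD47 pair behaved differently. Cd47 was at 99.4, 116, and 125 CPM in PBS and at 448, 467, and 610 CPM in LPS. The libraries did not overlap, and the log2 fold change was 2.16 ± 0.18 (adjusted p = 5.8e-06), or 1.82 ± 0.18 with 3′SL present (adjusted p = 2.8e-05). Sirpa was at 2152, 2635, and 1949 CPM in PBS and at 1965, 2252, and 1974 CPM in LPS. These libraries overlapped, and its log2 fold change of −0.12 ± 0.19 was not called (adjusted p = 0.65, 95% interval −0.55 to 0.31). With total counts as the scale Sirpa was called lower at −0.77, about as far down as the median of all genes at −0.71, and LPS against PBS then gave 1535 genes higher and 6657 lower in place of 2613 and 2889.

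**Figure D2:**
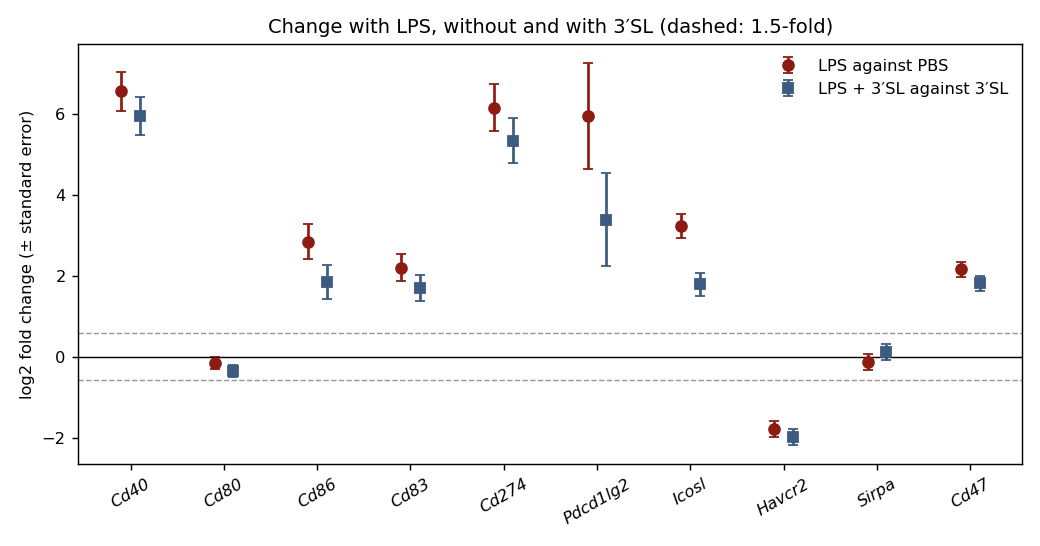
Log2 fold change with LPS (± standard error) of each gene, for LPS against PBS (circles) and LPS + 3′SL against 3′SL (squares), from the fit over 12 libraries, with dashed lines at 1.5-fold. Cd40 and Cd274 lie above 5 in both comparisons, Havcr2 lies at −1.79 and −1.98, and Cd80 and Sirpa lie within the dashed lines.

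The comparison of 3′SL with PBS asks what the oligosaccharide does without LPS. None of the 10 genes was called by edgeR, where 0% of all genes tested were called, and the unadjusted p was under 0.05 for 2 of them and for 10.1% of all genes. DESeq2 called 0 of the 10 genes and 0.615% of all genes, and edgeR with the library sets as a block called 0 of the 10 and 2.84% of all genes. The median log2 fold change of the 10 genes was 0.27, against 0.0013 over all genes. In every library set 4 of the 10 were higher with 3′SL (Cd80, Cd86, Icosl, and Havcr2), against 25.8% of all genes, and 2 were lower (Cd83 and Sirpa), against 25.5%.

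Icosl and Havcr2 were the 2 genes with an unadjusted p under 0.05. Icosl was at 9.60, 10.2, and 13.6 CPM in 3′SL, all above its 5.97 to 7.41 CPM in PBS. The log2 fold change was 0.76 ± 0.28 (adjusted p = 0.44, and 0.092 with the sets as a block). For Havcr2 the levels of 82.6 to 125 CPM in 3′SL also lay above the 62.1 to 71.6 CPM in PBS, with a log2 fold change of 0.56 ± 0.18 (adjusted p = 0.38, and 0.045 with the block, where its size stayed under 1.5-fold).

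Cd86 was at 25.7, 23.4, and 48.8 CPM in 3′SL, and its first and second 3′SL libraries lay inside the range of PBS. Within sets it was higher by 0.65, 0.33, and 0.77 on the log2 scale, and the block gave 0.58 ± 0.099 with an adjusted p of 0.011, just under 1.5-fold. Without the block its log2 fold change was 0.62 ± 0.41 (adjusted p = 0.66).

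For Cd40 and Cd274, the direction of the fit depended on set 3. In 3′SL, Cd40 was at 6.66, 7.92, and 18.3 CPM and Cd274 at 29.0, 25.6, and 84.5 CPM, with replicate 3 by far the highest. Log2 fold changes of 0.11 ± 0.38 for Cd40 and 0.36 ± 0.46 for Cd274 became −0.52 and −0.44 without this library. PBS replicate 3 of the same set stayed in those fits, and with all of set 3 left out the values were −0.23 and −0.080. Within sets, Cd40 differed by −0.085, −0.32, and 0.42, and Cd274 by 0.27, −0.37, and 0.72. Without 3′SL replicate 3, Cd47 (0.15 ± 0.17) turned to −0.042 and Pdcd1lg2 (1.68 ± 1.5) to −2.34. Cd47 differed within sets by 0.17, −0.024, and 0.29. The remaining genes, Cd80 (0.18 ± 0.14), Cd83 (−0.054 ± 0.32), and Sirpa (−0.32 ± 0.20), had adjusted p-values between 0.63 and 0.99.

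The comparison of LPS + 3′SL with LPS asks whether 3′SL alters the activated state. None of the 10 genes was called by edgeR, where 0% of all genes were called, and the unadjusted p was under 0.05 for 1 of them (Icosl) and for 6.95% of all genes. DESeq2 called 0 of the 10 genes and 0.79% of all genes, and the block 0 of the 10 and 1.45% of all genes. In every library set 7 of the 10 genes were lower with 3′SL (Cd40, Cd86, Cd83, Cd274, Icosl, Sirpa, and Cd47), against 25.7% of all genes, and 1 was higher (Havcr2), against 21.3%. The median log2 fold change of the 10 genes was −0.42, against −0.0079 over all genes. Both LPS comparisons above and this one use the LPS or the LPS + 3′SL libraries, so their values are not independent.

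Among the activating molecules, Cd40 differed within sets by −0.57, −0.56, and −0.43, a fitted log2 fold change of −0.51 ± 0.37 (adjusted p = 0.97). The block gave −0.52 ± 0.14 for Cd40 (adjusted p = 0.085). The conditions overlapped, with set 3 high in both. Cd83 was at 65.9, 72.6, and 52.3 CPM in LPS + 3′SL, below all 3 LPS libraries, with a log2 fold change of −0.56 ± 0.32 (adjusted p = 0.85, 95% interval −1.26 to 0.15). With the block it was −0.57 ± 0.16 (adjusted p = 0.099). Cd86 was at 79.3, 89.7, and 183 CPM, lower by 0.53, 0.44, and 0.29 within sets on the log2 scale. Its fitted log2 fold change was −0.38 ± 0.40 (adjusted p = 1), and the block gave −0.41 ± 0.095 (adjusted p = 0.046), which is under 1.5-fold.

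Icosl was at 38.2, 48.2, and 29.0 CPM in LPS + 3′SL, against 70.2, 79.0, and 36.3 CPM in LPS. The library of set 3 in LPS lay below the highest of LPS + 3′SL, so the groups overlapped. The log2 fold change was −0.68 ± 0.27 (adjusted p = 0.63, and 0.18 with the block). When set 3 was left out it was −0.78 ± 0.13 and was called (adjusted p = 0.038).

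Among the inhibitory molecules, Cd274 was at 1395, 1602, and 2605 CPM in LPS + 3′SL. Within sets it differed from LPS by −0.51, −0.54, and −0.38 on the log2 scale, with a fitted value of −0.46 ± 0.46 (adjusted p = 1). The block gave −0.48 ± 0.18 for Cd274 (adjusted p = 0.22). Pdcd1lg2 had 52 reads over the LPS + 3′SL libraries and 88 over the LPS libraries, and was higher in set 1 and lower in sets 2 and 3. Havcr2, the gene that LPS lowered, went the other way. It was at 28.7, 20.8, and 25.7 CPM in LPS + 3′SL against 23.7, 17.7, and 16.9 CPM in LPS, higher by 0.28, 0.23, and 0.61 within sets (fitted log2 fold change 0.37 ± 0.19, adjusted p = 0.79). The block gave 0.36 ± 0.15 for Havcr2 (adjusted p = 0.29). Cd47 at 387, 430, and 518 CPM (−0.19 ± 0.17) and Sirpa at 1903, 2142, and 1759 CPM (−0.093 ± 0.19) stayed close to LPS, with 95% intervals of −0.58 to 0.19 and −0.52 to 0.34. Cd80 differed by −0.017 ± 0.14 on the log2 scale, with an interval of −0.33 to 0.30.

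**Figure D3:**
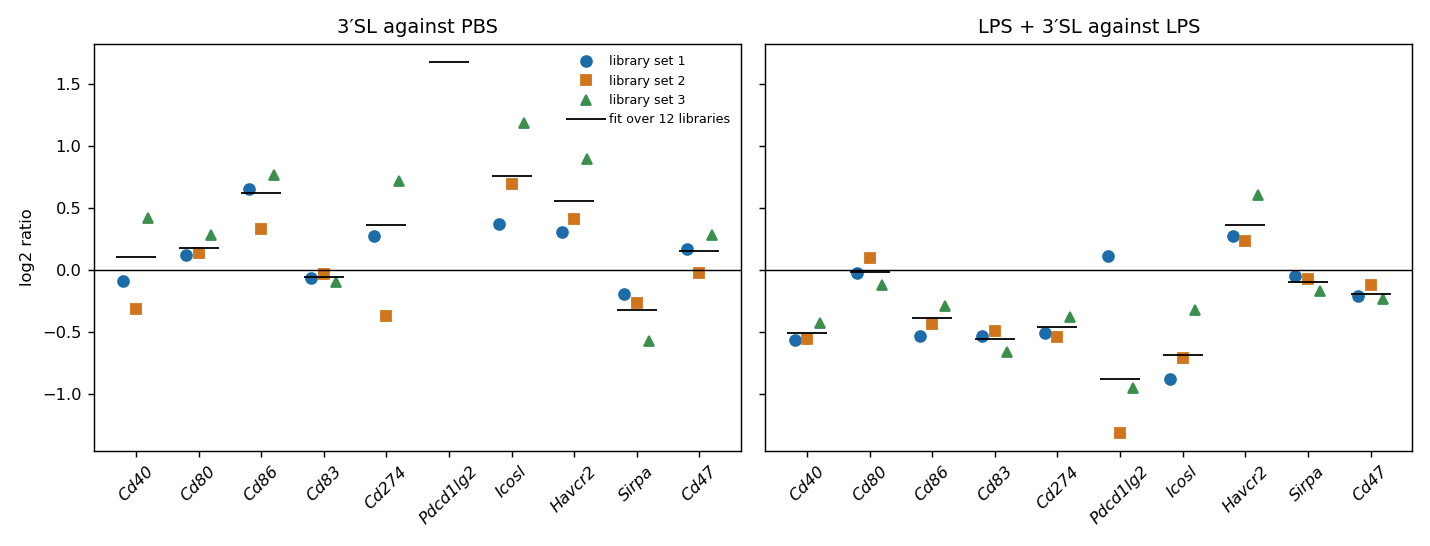
Log2 ratio of each gene for 3′SL against PBS (left) and LPS + 3′SL against LPS (right), with 1 point per library set and a bar for the fit over 12 libraries. Sets in which a library had no reads of Pdcd1lg2 have no point. On the right, Cd40, Cd86, Cd83, Cd274, Icosl, Sirpa, and Cd47 lie below 0 in all 3 sets and Havcr2 above 0.

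The interaction compares the change with 3′SL in LPS-treated cells with its change in untreated cells, using all 12 libraries. No gene of the 10 was called by edgeR, where 0% of all genes were called, and 6.09% of all genes had an unadjusted p below 0.05. By DESeq2's test there were calls for 0 of the 10 genes and 0.308% of all genes, and the block called 1 of the 10 (Cd86) and 1.55% of all genes. Icosl had the smallest adjusted p of the 10 in the edgeR fit. It was higher with 3′SL in all 3 sets without LPS (0.37, 0.70, and 1.19 on the log2 scale) and lower in all 3 with LPS (−0.88, −0.71, and −0.33). The difference of these changes was −1.45 ± 0.39 (edgeR adjusted p = 0.59, with adjusted p = 0.061 in the block fit and 0.10 in DESeq2).

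Cd86 had the same pattern, higher in all 3 sets without LPS and lower in all 3 with it. Opposite directions of this kind, either way round, were found for 2 of the 10 genes and for 10.9% of all genes tested. The difference was −1.0 ± 0.57 (adjusted p = 0.85). With the library sets as a block it was −1.0 ± 0.14 and was called (adjusted p = 0.0095). With the block and set 1 or set 2 left out, fits chosen after seeing the data, the call was lost (adjusted p = 0.34 and 0.15). With set 3 left out it held without the block (−0.94 ± 0.13, adjusted p = 0.047).

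**Figure D4:**
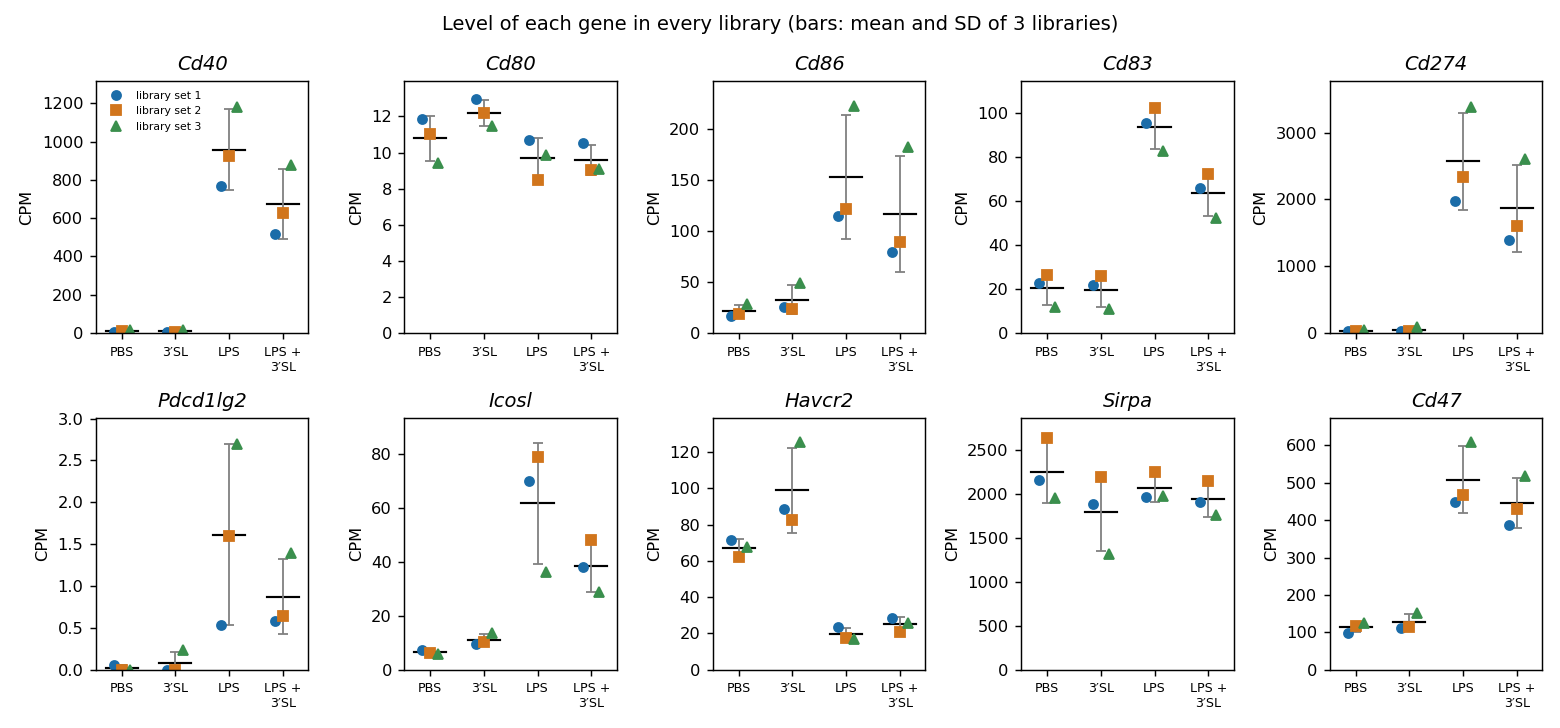
CPM of each of the 10 genes in every library (linear axes from 0), by condition and library set, with the mean and SD of 3 libraries. Cd40, Cd86, Cd274, and Cd47 are highest in set 3 within each condition, and Cd83 is lowest there.

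The sets left a mark on the genes themselves. After condition means were removed, the 4 libraries of set 3 lay above the mean by 0.33 to 0.88 on the log2 scale for Cd40, by 0.47 to 0.74 for Cd86, and by 0.44 to 1.09 for Cd274. For Cd47 they lay above it by 0.15 to 0.29. For Cd83 they lay below it, by −0.73 to −0.17, and for Sirpa too, by −0.42 to −0.061. The marker sums that follow are the highest of the 4 libraries of a set, whatever the condition of that library. Set 3 held the highest neutrophil marker sum (784 CPM, against 172 and 353 CPM in sets 1 and 2). The same was so for dendritic cells (17.5, against 7.86 and 7.26), endothelium (29.3, against 19.7 and 18.5), and macrophages (30044, against 26010 and 27541). For T cells it was 3.74, against 1.70 and 2.47, but in PBS Lck was lowest in set 3 (0.0675 CPM, against 0.201 and 0.386). The fibroblast sum was highest in set 1 (586). The B cell sum was highest in the 3′SL library of set 1 (2.75), but among PBS libraries it was highest in set 3 (2.70). The part of these differences in the deviations was not tested.

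Genes that pair with these molecules were listed too: 42 genes in 9 lists, of which 32 had enough reads to be tested. With LPS, 16 rose, 7 fell, and 9 were not called, where 18.3% of all genes tested were called higher and 20.2% lower. Among the TNF family ligands and HVEM, which costimulate T cells beside the B7 family, 5 of 6 tested rose and none fell. Tnfsf15 (TL1A) went from 0, 0.210, and 0 CPM in PBS to 16.0, 19.7, and 18.1 CPM in LPS (log2 fold change 7.98 ± 0.82, adjusted p = 2.2e-05). Tnfsf4 (OX40 ligand) went from 0.201, 0.105, and 0.371 CPM to 17.1, 19.7, and 23.4 CPM (log2 fold change 6.44 ± 0.99, adjusted p = 0.00035). Every LPS library stood far above every PBS library for both genes. Of the PBS libraries only replicate 2 had reads of Tnfsf15, and the fitted value was 11.7 without it and 7.36 without PBS replicate 1, so its size is uncertain.

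Of the CD40 adaptors, 4 of 6 rose and 1 fell. Traf1, which is recruited to CD40 and its relatives, rose from 1.87, 1.65, and 2.93 CPM to 114, 133, and 192 CPM (log2 fold change 6.09 ± 0.60, adjusted p = 1.6e-05). Traf2 rose by 1.94 ± 0.12 (adjusted p = 1.3e-06). Map3k14, the NIK kinase of noncanonical NF-κB signaling, fell by 0.97 ± 0.28 on the log2 scale (adjusted p = 0.016), a call that was lost without LPS replicate 1 or PBS replicate 3 (log2 fold changes −0.89 and −0.68).

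Of the TIM-3 ligands, Lgals9 (galectin-9) rose from 94.8, 116, and 121 CPM to 673, 770, and 998 CPM (log2 fold change 2.88 ± 0.22, adjusted p = 3.4e-06), while Havcr2 fell. Hmgb1 fell by 0.90 ± 0.24 on the log2 scale (adjusted p = 0.0097), and Ceacam1 was not called. Among genes that act on the stability of B7 molecules, all 3 were called. Cmtm6, which protects PD-L1 from degradation, rose by 1.51 ± 0.19 (adjusted p = 7.9e-05), its relative Cmtm4 fell by 1.31 ± 0.14 (adjusted p = 3.5e-05), and March1, a ubiquitin ligase that removes CD86 and MHC class II from the surface, rose by 3.46 ± 0.42 (adjusted p = 6.8e-05). March1 was at 39.2, 50.4, and 55.3 CPM in PBS and at 369, 423, and 805 CPM in LPS.

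The B7 relatives outside the 10 genes fell where they were tested. Vsir (VISTA), an inhibitory molecule of resting myeloid cells, went from 251, 284, and 286 CPM to 77.0, 85.1, and 105 CPM (log2 fold change −1.62 ± 0.14, adjusted p = 5.6e-06). Cd276 (B7-H3) fell by 1.0 ± 0.27 on the log2 scale (adjusted p = 0.0099), and Vtcn1 had too few reads. Cd28 was the 1 receptor of the CD28 family with enough reads, and it went from 6.03, 7.16, and 3.0 CPM to 0.635, 0.436, and 0.921 CPM (log2 fold change −3.03 ± 0.61, adjusted p = 0.0019). Of the T cell markers, Cd3e was at 0 in the same libraries and Lck rose, as given above.

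Both nectin ligands tested rose, Nectin2 by 1.89 ± 0.17 (adjusted p = 8.4e-06) and Pvr by 0.96 ± 0.26 on the log2 scale (adjusted p = 0.010). Of the 6 SIRPα and CD47 partners, Ptpn6 (SHP-1), a phosphatase that SIRPα recruits, rose by 1.52 ± 0.14 (adjusted p = 9.7e-06). Lrp1, a receptor for calreticulin on phagocytes, fell by 0.87 ± 0.18 (adjusted p = 0.0022). Calr and Qpctl, the enzyme that modifies CD47 for SIRPα binding, were not called (log2 fold changes 0.037 and −0.13). Ptpn11 (101, 107, and 112 CPM in PBS, 151, 169, and 159 CPM in LPS) was not called either, although every LPS library stood above every PBS library. Nor was Thbs1 (443, 113, and 293 CPM in PBS, 644, 412, and 835 CPM in LPS). Pirb, an inhibitory receptor for MHC class I, rose by 2.24 ± 0.29 (adjusted p = 0.00012), and Cd200r1 and Lair1 were not called.

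**Figure D5:**
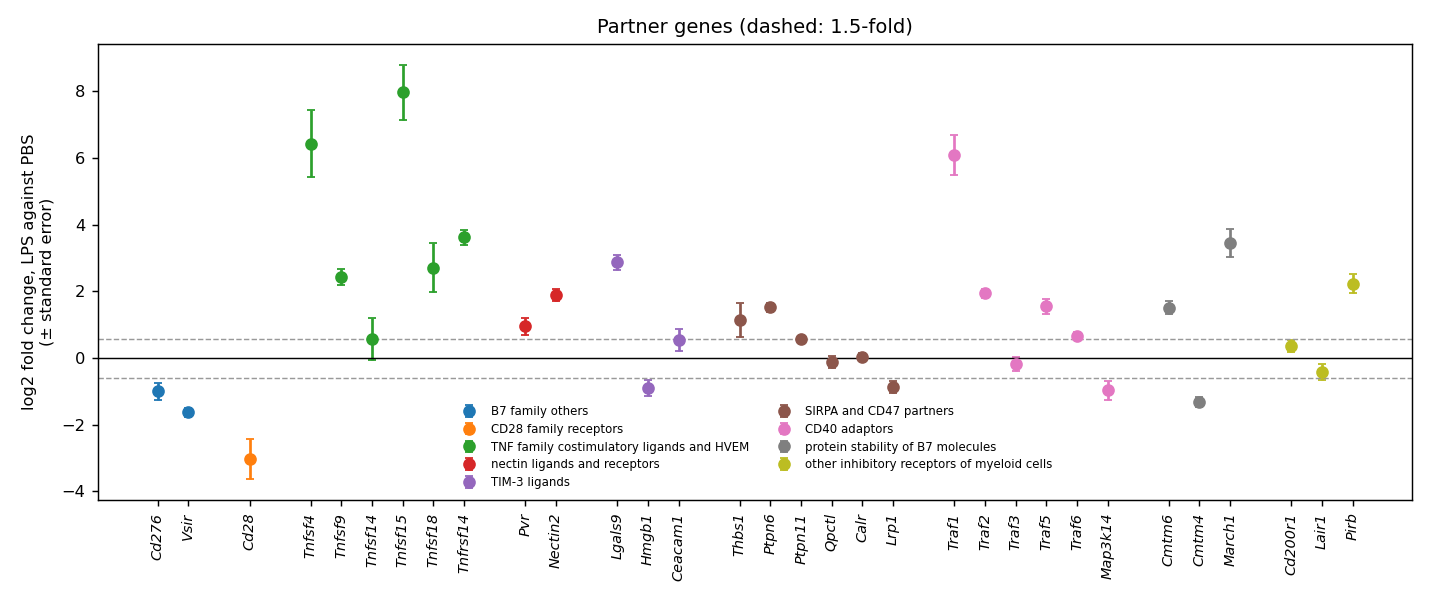
Log2 fold change with LPS against PBS (± standard error) of the 32 tested partner genes, colored by list, with dashed lines at 1.5-fold. Tnfsf15, Tnfsf4, and Traf1 lie highest at 7.98, 6.44, and 6.09, and Cd28 lies lowest at −3.03.

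With LPS + 3′SL against 3′SL, 13 of the 32 partner genes were called higher and 7 lower, where 14.3% and 14.8% of all genes were. None was called in either comparison of 3′SL by edgeR, where 8 of the 32 had an unadjusted p under 0.05 against PBS (10.1% of all genes) and 6 against LPS (6.95% of all genes). A pair of them, named after their values were seen, passed both thresholds in DESeq2 and in the block fit. Tnfsf15 was at 3.15, 4.09, and 5.58 CPM in LPS + 3′SL, below all 3 LPS libraries, with a log2 fold change of −2.07 ± 0.57 (edgeR adjusted p = 0.31, DESeq2 2.1e-05, block 0.011). Tnfsf4 was at 0.781, 0.835, and 9.07 CPM in 3′SL, above all 3 PBS libraries, with a log2 fold change of 3.94 ± 0.95 (edgeR adjusted p = 0.27, DESeq2 0.00074, block 0.022). Replicate 3 carried 228 of its reads and the others 21 each, and the log2 fold change was 1.78 without that library. PBS replicate 3 of the same set stayed in that fit. With all of set 3 left out, the value for Tnfsf4 was 2.31 and was called by edgeR (adjusted p = 0.015).

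For each of the 10 genes except Icosl, the 3 genes with the most similar log2 CPM over the 12 libraries were taken, by Pearson's r among all genes tested. These 12 points share the 4 conditions and the 3 sets, so r is given as a description. Cd274 was most like Eif2ak2, Ifih1, and Parp12 (r = 0.999 for each), genes known to be induced by interferon. Cd40 was most like Eif2ak2, Tmcc3, and Tor3a, and Cd47 most like Usp25, Samhd1, and Parp12 (r = 0.998 or above). Cd40, Cd274, and Cd47 therefore had neighbors in common, Eif2ak2 for the first pair and Parp12 for Cd274 and Cd47.

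Other profiles had other neighbors. Cd86 was most like Arhgef12, Zcchc2, and H3f3b (r = 0.998 to 0.995), and Cd83 most like Selenot, Crkl, and Fam98b (r = 0.992 to 0.985). Pdcd1lg2 was most like Il1bos, Hk1, and Tapt1 (r = 0.987 to 0.980). Havcr2 was most like Slc38a2, Jade1, and Slc43a2 (r = 0.990 to 0.985). The genes not called with LPS had lower values of r: Cd80 with Pkd2, Cdon, and Dclk2 (r = 0.950 to 0.924) and Sirpa with Atm, Frmd4b, and Nmral1 (r = 0.964 to 0.929). Among the 10 genes, r was 0.998 between Cd40 and Cd274, 0.953 between Cd40 and Cd86, and −0.942 between Cd40 and Havcr2.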

How the data were processed

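RNA was poly(A)-selected and made into strand-specific libraries. For every library the authors deposited unnormalized counts, whole numbers of reads on each gene. The submitters' processing notes name FastQC, Trimmomatic, STAR, HTSeq, and DESeq2, without versions, and the genome build and the strand setting of the counting are not given in the sources used here. Uncounted reads (33.2% to 37.1% of a library) were left out. Conditions come from the labels, doses and time from the study's methods. Replicates are numbered in accession order.

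In edgeR 4.0.16 (R 4.3.3), genes were filtered with filterByExpr, libraries scaled by TMM factors (0.700 to 1.30), and the 12 libraries fitted with a quasi-likelihood model of the 4 condition means. Benjamini-Hochberg adjustment covered all genes tested. DESeq2 1.42.0, other scalings and filters, the library sets as a block, and fits with libraries left out were alternatives, and the tests were tested on simulated data. Counting intervals cover counting error only. The 10 genes, the partner and marker lists, and the library sets were chosen with earlier results of these data known. Partner genes were named by rule: in each list, up to 2 per direction with the largest change among those called with LPS against PBS. Cd3e, Lck, Cd79b, Ms4a1, Flt3, Cd209a, Xcr1, Clec9a, and the uncalled partners were named after their values were seen. Of 93 listed genes, 92 were matched to GENCODE M21 by identifiers without their version numbers. 1 listed gene was not used here, and the genes most similar to Icosl are not reported here.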

Additional observations from a re-analysis of the deposited data

Results flagged for a closer look

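A change with 3′SL that pointed one way in all 3 library sets without LPS and the opposite way in all 3 with LPS was found for 2 of the 10 genes, Icosl and Cd86. Either way round, it was found for 10.9% of all genes tested. For Icosl the difference of the changes was −1.45 on the log2 scale. It was −1.72 without LPS replicate 3 and −1.23 without LPS replicate 2, the ends of the range over 12 fits that each left out 1 library, and none of these fits called it. For Cd86 the difference was −1.0, and it ranged from −1.47 (without LPS + 3′SL replicate 3) to −0.56 (without 3′SL replicate 3). Both of these fits left out a library of set 3 and kept the rest of that set. Within sets the difference for Cd86 was −1.18, −0.76, and −1.05. By edgeR's interaction term without a block neither passed adjustment (adjusted p = 0.59 for Icosl and 0.85 for Cd86). With the library sets as a block Cd86 was called (−1.0, adjusted p = 0.0095) and Icosl was not (adjusted p = 0.061).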

How the results depend on the processing

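The 10 genes' calls with LPS held in number under most alternatives: 8 with LPS against PBS in all but 2 settings (10 with total counts, 7 without set 2) and 6 to 9 with LPS + 3′SL against 3′SL. The loss without set 2 was Pdcd1lg2 (adjusted p = 0.057). Over all genes, leaving out set 2 gave 3516 calls for LPS against PBS and 2183 for LPS + 3′SL against 3′SL (5502 and 4171 with all libraries). The labels carry no replicate numbers that pair libraries. The library sets, known from earlier results, served as a block in their place. The block lowered edgeR's common biological coefficient of variation from 0.310 to 0.133. Fits that combine the block with a set left out were chosen after seeing the data.

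For 3′SL against PBS, edgeR's 0 calls over all genes became 88 in DESeq2, 406 with the block, 87 without set 3, and 2, 3, and 323 with the block and set 1, 2, or 3 left out. For LPS + 3′SL against LPS they became 1 with DESeq2's size factors, 1 with total counts, 113 in DESeq2, 2 with all genes of at least 1 count, 207 with the block, 149 without set 3, and 1 and 371 with the block and set 1 or 3 left out. For the interaction they became 44 in DESeq2, 222 with the block, 44 without set 3, and 1 and 457 with the block and set 1 or 3 left out. Among the 10 genes, 1 was called for LPS + 3′SL against LPS without set 3 (Icosl), with or without the block. For the interaction, 1 was called with the block and 1 without set 3 (Cd86 in both), and 2 with both (Cd86 and Icosl). The cause was not tested.

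Directions that turned belong to changes that were not called. With total counts, Sirpa came to −0.38 for LPS + 3′SL against 3′SL and 0.0036 for LPS + 3′SL against LPS, Cd40 to −0.0090 for 3′SL against PBS, and Cd80 to 0.078 for LPS + 3′SL against LPS. Without set 3, Cd40, Cd274, and Pdcd1lg2 came to −0.23, −0.080, and −2.83 for 3′SL against PBS, Cd80 to 0.040 for LPS + 3′SL against LPS, and the interaction of Pdcd1lg2 to 2.05. Leaving out single libraries gave these ranges for 3′SL against PBS: −0.52 to 0.38 for Cd40, −0.44 to 0.70 for Cd274, −0.042 to 0.23 for Cd47, −0.33 to 0.20 for Cd83, and −2.34 to 3.95 for Pdcd1lg2. For the interaction they were −0.88 to 0.014 for Cd40, −0.30 to 0.050 for Havcr2, and −4.83 to 1.46 for Pdcd1lg2. Sirpa ranged from −0.21 to 0.0075 for LPS against PBS and from −0.053 to 0.28 for LPS + 3′SL against 3′SL, and Cd80 from −0.10 to 0.062 for LPS + 3′SL against LPS. Of the partner genes, Pvr, Hmgb1, Map3k14, Cd276, and Cd28 lost their LPS call when set 2 was left out, and Pvr, Hmgb1, and Map3k14 also without set 1. Pvr also lost it with total counts, at 0.31. With the longest transcript as length, 8 of the 10 genes kept their place in PBS, with Cd83 and Cd86 exchanged.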
